A study of Mus musculus with 8 samples.

Results

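Proteins that enter the secretory pathway are folded, glycosylated and joined by disulfide bonds in the endoplasmic reticulum (ER), and those that fail to fold are moved back to the cytosol and degraded (ER-associated degradation, ERAD). When unfolded proteins build up, the sensors IRE1, ATF6 and PERK start the unfolded protein response, in which IRE1 splices the Xbp1 mRNA, ATF6 is cut to release a transcription factor and PERK slows translation while ATF4 is made. XBP1 and ATF6 are known to induce chaperones and degradation factors of the ER, whereas ATF4 is known for genes of amino acid supply and, with CHOP, for the late stress response. Cells that secrete much protein, such as those that lay down basement membrane, are known for a large ER.

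The 45 genes described here encode this machinery in the mouse. They are a list of names drawn up by function, with earlier results of these data known, and all 45 were listed in both tables, among 13056 genes in sorted cells and 14319 genes in overexpressing cells. They comprised 8 chaperones, 5 genes of the lectin chaperone cycle, 11 genes for disulfide isomerases and oxidases with their partners, 12 ERAD genes, 7 genes for stress sensors and their targets, and 2 genes for proteins of ER sheets.

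RNA-seq was carried out on 8 samples of mouse embryonic stem cells (mESCs) of the strain labelled C57BL/6(F) x 129/sv(M), grown on gelatin in serum and LIF, in 4 groups of 2 samples. The sorted cells, KLF3-GFP-positive or KLF3-GFP-negative, came from a reporter line with the N-terminal part of KLF3, lacking its DNA-binding domain, fused to Emerald GFP under the CAGGS promoter on a piggyBac construct that also carried DsRed. Both groups thus held the reporter, which was made from picked colonies after hygromycin selection, and 500 cells per sample were sequenced after Smart-seq2. In the other experiment, codon-optimized Klf3 (KLF3-OE) or GFP (GFP-OE) was inserted at an FRT site in the Col1a1 locus of R26 cells, which express M2rtTA from Rosa26, picked as clones that were first grown on feeders, and induced with doxycycline, and poly(A) RNA was sequenced at 72 hours with a directional kit. The comparisons ask which genes differ where the KLF3 reporter protein is stable and which genes differ when KLF3 is forced.

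The authors deposited 1 FPKM value (fragments normalized for transcript length and sequencing depth) per gene and group, the mean of both samples. The spread between replicates is therefore unknown for every value below, no SD or test stands beside a difference, and the depth is unknown. Differences were taken on the scale log2(FPKM + 1), which understates the change of low genes, wherever the mean of both groups reached 1 FPKM, and a gene was counted as upregulated or downregulated when it differed by more than 2-fold on that scale. Klf3 was listed at 122 FPKM in KLF3-GFP-positive against 107 FPKM in KLF3-GFP-negative cells, and at 58.7 FPKM in GFP-OE and 47.8 FPKM in KLF3-OE cells. The codon-optimized transgene need not align to the Klf3 locus, so the values on overexpression do not check the labels. Reads from the KLF3 part of the reporter may be counted at this locus, so the sorted values may mix reporter and endogenous mRNA. In bulk samples, fewer cells of a type and less RNA per cell cannot be told apart.

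In KLF3-GFP-positive cells the ER folding and degradation genes were upregulated together. Of the 41 members with enough expression, 26 (63.4%) rose by more than 2-fold and 0 fell, whereas 13.8% of all 9212 genes compared rose and 8.32% fell. The median log2 fold change of the members was 1.35, beside 0.03 over all genes, and 40 of 41 were above 0, the exception being Atf4. The FPKM of all 45 members summed to 4926 in KLF3-GFP-positive against 1559 in KLF3-GFP-negative cells, a 3.16-fold difference that took their share of the total from 0.172% to 0.520%. Within its column, the rank of a member among all genes was higher in KLF3-GFP-positive cells for 44 of 45 members, again with Atf4 as the exception.

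Markers of another cell type moved with this difference. All 17 primitive endoderm markers with enough expression, of 18 listed, were upregulated, and the summed FPKM of the 18 rose from 62.2 to 2111. In the KLF3-GFP-negative group Foxa2, Cubn and Ttr had 0.1 FPKM, the least that the table gives to any gene. Of 12 naive pluripotency markers 7 fell and 1 rose (1.02), the latter no longer past the limit after median-ratio scaling. Sox2 fell from 39.4 to 9.64 FPKM, while Pou5f1 was at 115 and 59.4 FPKM. Of 5 trophoblast markers compared 1 fell (-1.04) and 2 rose, with a median of 0.44. The 2 were the keratin genes Krt8 (18.3 to 206 FPKM) and Krt18 (12.7 to 183 FPKM). Of all genes compared, 13.8% rose and 8.32% fell. The 3 listed fibroblast markers were at or under 1.56 FPKM in both groups. The part of these cell type markers in the results on the ER genes was not tested.

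**Figure D1:**
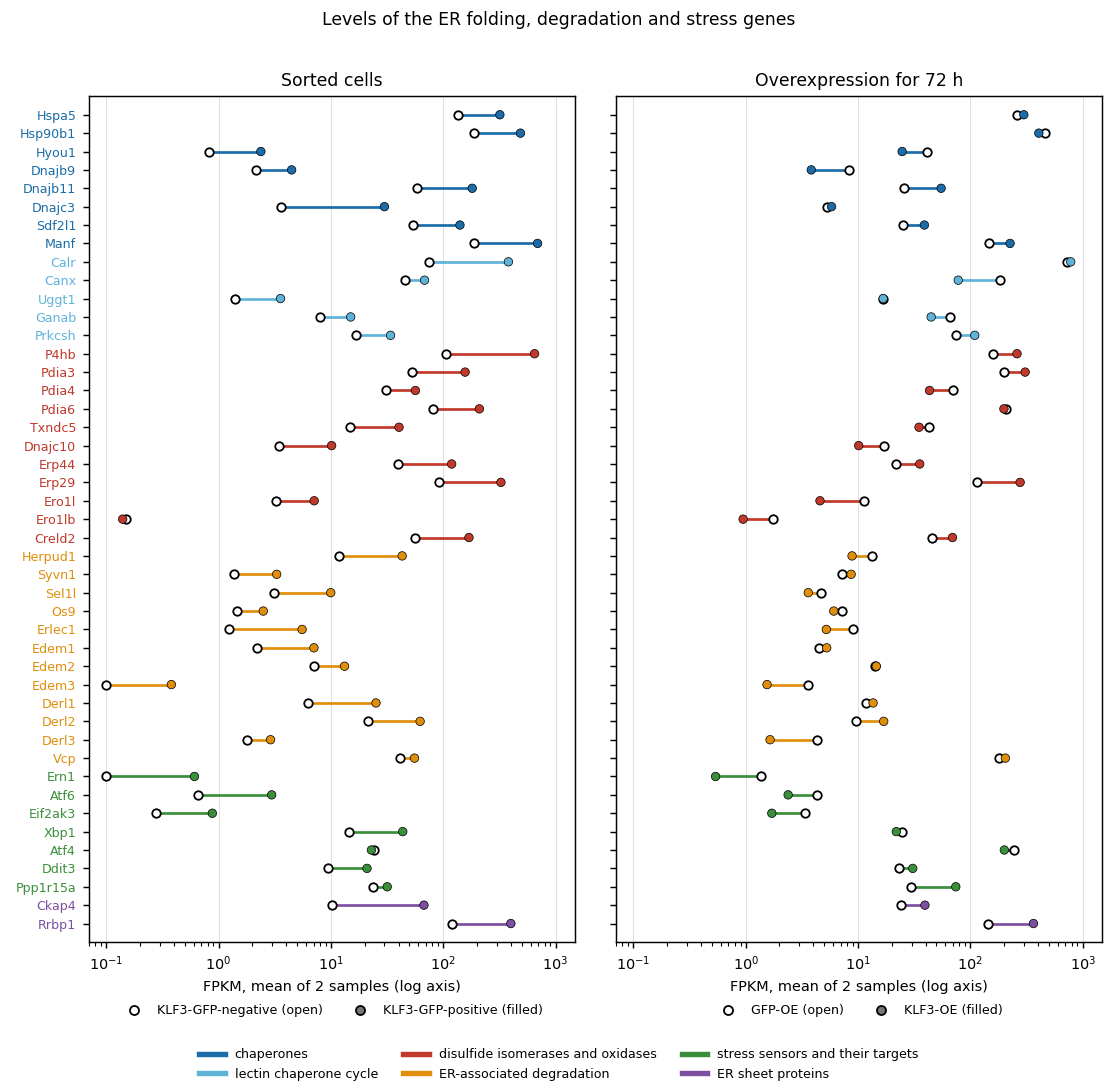
FPKM of the 45 genes in both experiments, 1 row per gene, on a log axis, where each point is the authors' mean of 2 samples, open for the control group and filled for the KLF3 group, and colours give the function. In sorted cells (left) the filled point lies to the right of the open point for all genes except Atf4 and Ero1lb, and in overexpressing cells (right) the filled points lie on both sides.

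Of the 8 chaperones of the ER lumen 6 were upregulated, with a median log2 fold change of 1.37. Hspa5, which encodes BiP, the main Hsp70 chaperone of the ER, rose from 136 to 319 FPKM (log2 fold change 1.23). Hsp90b1, which encodes the ER Hsp90 protein GRP94, rose from 187 to 487 FPKM (1.37). Manf, whose product is a BiP-binding protein of the ER lumen, rose from 189 to 692 FPKM (1.87) and was the highest member in both sorted groups. These genes were abundant in the KLF3-GFP-negative group too, at percentiles 93.9, 95.1 and 95.2 of all genes. Manf shares 6511 bases with the gene Rbm15b on the same strand, so that reads from these bases may have been counted for either gene. It also shares 42681 bases with Dcaf1 on the opposite strand.

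The J-domain cochaperones that pass substrates to BiP, with other partners of BiP, differed in the size of their change. Dnajc3, which encodes P58IPK, showed the largest log2 fold change of the 45 members, from 3.63 to 30.0 FPKM (2.74), or 8.26-fold in plain FPKM. Dnajb11, which encodes ERdj3, rose from 58.8 to 181 FPKM (1.61), and Sdf2l1, whose product forms a complex with ERdj3, rose from 54.0 to 141 FPKM (1.37). Dnajb9, which encodes ERdj4 and is a known target of XBP1, was at 2.14 and 4.47 FPKM (0.80), within the limits. Hyou1, the nucleotide exchange factor of BiP, was at 0.83 and 2.38 FPKM (0.89). Both of these low genes passed 2-fold without the pseudocount of 1, with log2 ratios of 1.06 and 1.52.

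In the cycle in which calnexin and calreticulin hold glycoproteins until they are folded, 1 of 5 genes passed the limit. Calr, the gene of the soluble lectin calreticulin, rose from 75.0 to 381 FPKM (2.33). Canx, the gene of its membrane-bound relative calnexin, was at 45.8 and 68.1 FPKM (0.56). Calr thus stood above Canx by a wider margin in the KLF3-GFP-positive group. Uggt1, whose product marks misfolded glycoproteins for another round, was at 1.40 and 3.56 FPKM (0.93). Ganab and Prkcsh, which encode the catalytic and the regulatory subunit of glucosidase II, differed by 0.84 and 0.97, Prkcsh from 16.8 to 34.0 FPKM. Without the pseudocount of 1, Uggt1 (1.35) and Prkcsh (1.01) passed the limit as well. All 5 were above 0, with a median of 0.93.

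Of the disulfide isomerases, oxidases and their partners, 8 of 10 were upregulated, with a median of 1.48. P4hb, which encodes protein disulfide isomerase and also the beta subunit of collagen prolyl 4-hydroxylase, rose from 106 to 650 FPKM (2.61) and came second to Manf in KLF3-GFP-positive cells. Pdia3, whose product ERp57 works with the lectin chaperones, rose from 52.2 to 157 FPKM (1.57). Pdia6 rose from 81.5 to 210 FPKM (1.35), as did Txndc5 from 14.7 to 40.4 FPKM (1.40). Pdia4 was at 31.0 and 56.5 FPKM (0.85), so that 1 abundant isomerase stayed within the limits. Erp29, a thioredoxin-like protein without isomerase activity, rose from 91.8 to 326 FPKM (1.82). Erp44, which retrieves clients from the early secretory pathway, rose from 39.6 to 119 FPKM (1.56). Creld2 rose from 55.8 to 170 FPKM (1.59), and Dnajc10, which encodes the reductase ERdj5, from 3.44 to 10.2 FPKM (1.33). The oxidases that recharge the isomerases were at lower levels in FPKM. Ero1l was at 3.24 and 7.10 FPKM (0.93, or 1.13 without the pseudocount), and Ero1lb stood at 0.15 and 0.14 FPKM, under the minimum.

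Of the ERAD genes, 6 of 11 were upregulated, with a median of 1.34. Derl1, a subunit of the channel through which substrates leave the ER, rose from 6.28 to 25.2 FPKM (1.85). Herpud1, the organizer of the degradation complex, rose from 11.7 to 43.1 FPKM (1.79). Derl2 rose from 21.2 to 62.3 FPKM (1.51). These were followed by genes that pick out glycoproteins for degradation. Erlec1, an ER lectin, rose from 1.24 to 5.54 FPKM (1.55), and Edem1, which encodes a mannose-trimming factor, rose from 2.18 to 7.06 FPKM (1.34). Sel1l, the adaptor of the ubiquitin ligase HRD1, rose from 3.13 to 9.97 FPKM (1.41), whereas Syvn1, the gene of HRD1 itself, was at 1.38 and 3.29 FPKM (0.85, or 1.25 without the pseudocount). Edem2, Os9 and Derl3 differed by 0.81, 0.50 and 0.49. Vcp, the gene of the cytosolic ATPase p97 that pulls substrates out, had the smallest difference of the group, with 41.1 and 55.5 FPKM (0.43). Edem3, listed at the least value of 0.1 and at 0.38 FPKM, was under the minimum.

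The sensor genes were at far lower levels in FPKM than Hspa5, Hsp90b1 or Calr. Atf6 rose from 0.65 to 2.97 FPKM (1.27). Ern1, the gene of IRE1, was at 0.10 and 0.61 FPKM, and Eif2ak3, the gene of PERK, was at 0.28 and 0.88 FPKM, both under the minimum. Downstream of the sensors, Xbp1 rose from 14.4 to 43.6 FPKM (1.54), and Ddit3, the gene of CHOP, rose 2.21-fold from 9.48 FPKM (1.07), a difference that fell to 0.94 after quantile normalization. Atf4 was at 24.4 and 23.0 FPKM (-0.08) and Ppp1r15a, which encodes GADD34, the phosphatase subunit that restores translation, at 23.6 and 31.7 FPKM (0.41). Of the transcription factor genes, Xbp1, Ddit3 and Atf6 thus passed the limit and Atf4 did not. FPKM per gene do not show the splicing of Xbp1, the cleavage of ATF6 or the translation of ATF4. Both genes for proteins that shape ER sheets were upregulated. Ckap4, which encodes CLIMP-63, rose from 10.1 to 67.3 FPKM (2.62), and Rrbp1, the ribosome-binding protein p180, from 120 to 400.2 FPKM (1.73).

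The genes with overlapping neighbours were examined because Smart-seq2 libraries do not keep the strand. In the GENCODE annotation 11 members overlapped another protein-coding gene model, 5 of them over more than 500 bases of a gene with another symbol (Erlec1, Erp29, Manf, Ppp1r15a and Vcp), and the values of these 5 may include reads of the neighbour. The longest overlaps were 42681 bases of Manf with Dcaf1, 23562 of Erlec1 with Asb3 and 15789 of Erp29 with Naa25, each on the opposite strand. Those of Vcp and Ppp1r15a were 3678 and 717 bases. Ddit3 overlapped a further gene model of its own symbol.

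After 72 hours of KLF3 overexpression few of these genes passed the limits. Of 44 members compared, 4 (9.09%) rose and 3 (6.82%) fell, beside 6.6% and 10.1% of all 11179 genes compared. The median log2 fold change of the members was 0.03, with 23 members above and 21 below 0, and became 0.22 after median-ratio scaling and -0.03 after quantile normalization. The median of all genes was -0.18, a shift of 0.18 that median-ratio scaling removed, and 26 of 44 members were above it. Summed over the members, FPKM went from 3694 in GFP-OE to 4366 in KLF3-OE cells (1.18-fold), but the total of all genes went from 612621 to 834882, so that the share of the members was 0.603% and 0.523%. Primitive endoderm markers rose here as well, 18 of 18, with summed FPKM of 256 and 1019, 4 of 12 naive pluripotency markers fell (2 after median-ratio scaling), and 3 of 8 trophoblast markers rose. The 5 listed fibroblast markers, which feeder cells would bring, summed to 11.1 and 20.0 FPKM. The part of these markers in the results on the ER genes was not tested.

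The 4 upregulated members came from 4 functions. Rrbp1 rose from 145 to 365 FPKM (1.33), Ppp1r15a from 29.9 to 74.3 FPKM (1.28), Erp29 from 115 to 278 FPKM (1.26) and Dnajb11 from 25.9 to 55.0 FPKM (1.06). With quantile normalization Rrbp1 and Erp29 came to 0.91 and 0.86, within the limits, as did Ppp1r15a (0.72) with the trend of genomic span removed and Dnajb11 (0.98) with that of transcript length removed. The 3 downregulated members were Canx, which fell from 184 to 78.1 FPKM (-1.23), Ero1l, which fell from 11.4 to 4.59 FPKM (-1.15), and Derl3, which fell from 4.32 to 1.65 FPKM (-1.01). Ero1l and Derl3 came to -0.97 and -0.85 after median-ratio scaling, so that of these 3 Canx alone stayed past the limit under each scaling, and Canx came to -0.94 with the trend of transcript length removed.

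The most abundant chaperones stayed well within the limits. Calr, the highest member in both groups, was at 719 and 783 FPKM (0.12), and Hsp90b1, the next in rank, at 459 and 408 FPKM (-0.17). Hspa5 was at 258 and 300 FPKM (0.21). The sign of all these values changed with the scaling. Manf and Sdf2l1 each differed by 0.61, and Dnajc3, the member with the largest rise in sorted cells, was at 5.28 and 5.82 FPKM (0.12). Dnajb9 and Hyou1 had log2 fold changes of -0.94 and -0.71. The median of the 8 chaperones was 0.17, and 0.36 or -0.04 after median-ratio scaling or quantile normalization. In the lectin cycle, Prkcsh differed by 0.55, Uggt1 by 0.00 and Ganab by -0.55.

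Apart from Erp29 and Ero1l, the genes of disulfide isomerases and their partners differed in both directions within the limits. P4hb was at 160 and 261 FPKM (0.70), Pdia3 at 199 and 308 FPKM (0.62) and Erp44 at 21.8 and 35.5 FPKM (0.68). Creld2 differed by 0.59. Pdia4, in contrast, was at 70.6 and 43.4 FPKM (-0.69), and Dnajc10 at 17.2 and 10.2 FPKM (-0.70). Pdia6 was at 209 and 199 FPKM (-0.07), Txndc5 differed by -0.29, and Ero1lb, at 1.76 and 0.95 FPKM, by -0.50. The group median was -0.07, and 0.14 or -0.30 under the other scalings, so that its sign depended on the scaling.

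Of the 12 ERAD genes 0 were upregulated and 1 was downregulated (Derl3), beside 6.6% and 10.1% of all genes compared. Their median was -0.08, which became 0.11 and 0.06 after median-ratio scaling and quantile normalization. Derl2 was at 9.69 and 17.0 FPKM (0.75), and Derl1, Edem1, Edem2, Syvn1 and Vcp differed by 0.05 to 0.24. Herpud1 was at 13.3 and 8.86 FPKM (-0.53), Erlec1 at 9.10 and 5.23 FPKM (-0.70) and Edem3 at 3.62 and 1.55 FPKM (-0.86). Sel1l and Os9 differed by -0.31 and -0.21. Herpud1, a marker of ER stress in common use, thus stayed within the limits, and came to -0.34 after median-ratio scaling.

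The sensors Atf6 (4.28 and 2.39 FPKM, -0.64) and Eif2ak3 (3.35 and 1.71 FPKM, -0.68) were lower in KLF3-OE cells within the limits, and Ern1 was at 1.37 and 0.54 FPKM, under the minimum. Xbp1 was at 24.8 and 21.9 FPKM (-0.17), Atf4 at 245 and 201 FPKM (-0.29) and Ddit3 at 23.3 and 30.7 FPKM (0.38). Ckap4 differed by 0.70, from 23.9 to 39.5 FPKM.

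**Figure D2:**
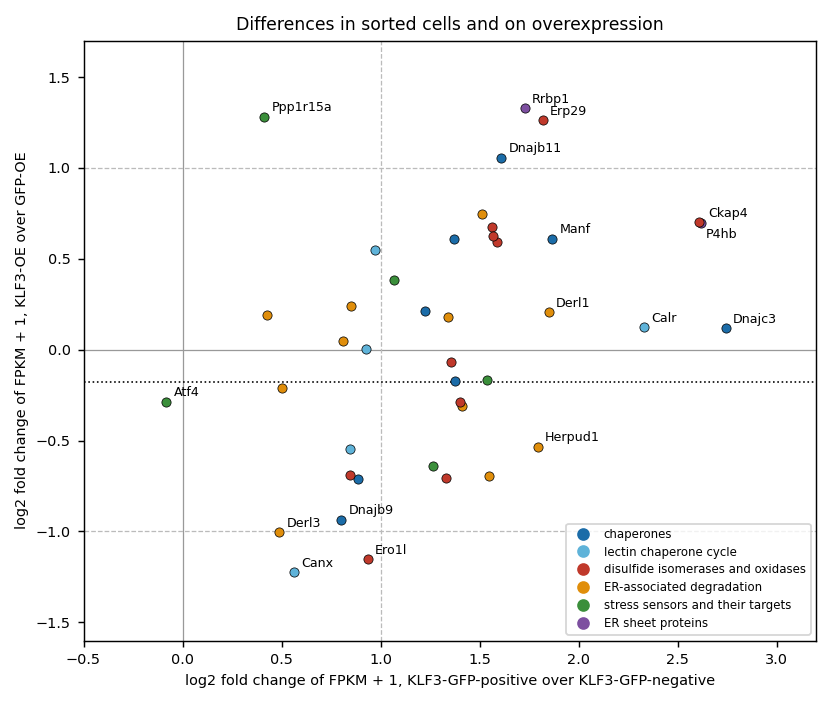
Log2 fold change of FPKM + 1 of the 41 members compared in both experiments, sorted cells on the x axis and overexpression on the y axis, 1 point per gene, with the 2-fold limits dashed and the median of all genes on overexpression (-0.18) dotted. Only Rrbp1, Erp29 and Dnajb11 lie past both upper limits, and the members spread around 0 on the y axis.

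In both experiments 41 members had enough expression. Of these, 3 were upregulated in both (Dnajb11, Erp29 and Rrbp1), 23 in sorted cells alone, and 0 rose in sorted cells and fell on overexpression. The log2 fold change was larger in sorted cells for 40 of 41 members, Ppp1r15a being the exception. Over the 41 members the fold changes of both experiments had a Pearson correlation of 0.39 and a Spearman correlation of 0.47, given as a description across genes, since each experiment holds a single pair of means. The experiments differed in cell line, input, library method and sequencing provider, which cannot be told apart from the kind of comparison. Starting levels differed too. Hyou1 was at 0.83 FPKM in KLF3-GFP-negative and at 41.1 FPKM in GFP-OE cells, and Atf4 at 24.4 and 245 FPKM. The tables were made separately, so these levels are set side by side only.

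Other genes of the pathway gave a context for the members. Of all genes compared in sorted cells, 13.8% rose and 8.32% fell. Of 25 further ER folding factors compared in sorted cells, 16 rose and 1 fell, with a median of 1.21, and the largest differences were those of Pdia5 (6.03 to 37.9 FPKM, 2.47), Dnajc1 (2.27) and Txndc11 (2.13). Of 30 genes for the translocon, signal peptidase and oligosaccharyltransferase, 17 rose and 0 fell (median 1.10). Further ERAD genes, many of them cytosolic ubiquitin factors, rose in 6 and fell in 1 of 23 cases (median 0.50), led by Vimp (35.9 to 186 FPKM, 2.34), whose product binds the Derlins. On overexpression the medians of these lists were 0.00, 0.39 and -0.12. There 4 of 25, 5 of 31 and 0 of 25 genes were upregulated, beside 6.6% of all genes. After median-ratio scaling they were 0.17, 0.59 and 0.08.

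The targets of the integrated stress response, the transcripts that ATF4 induces, fell more often than they rose in sorted cells. Of 20 genes compared, 8 fell (40%) and 1 rose (5%), beside 8.32% and 13.8% of all genes, and the median was -0.79. Cth, an enzyme of cysteine synthesis, fell from 108 to 18.0 FPKM (-2.52), Nupr1, a stress-induced transcriptional regulator, from 140.4 to 25.4 FPKM (-2.42) and Psat1, an enzyme of serine synthesis, from 87.9 to 20.8 FPKM (-2.03). The gene that rose was Atf3, from 0.43 to 3.02 FPKM (1.49). The other 11 stayed within the limits, as did Atf4. On overexpression 2 of 20 fell (10%) and 0 rose, beside 10.1% and 6.6% of all genes. The median of the list there was -0.25 (-0.05 after median-ratio scaling), beside -0.18 over all genes.

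Few chaperones outside the ER passed the limits. Of 31 cytosolic and mitochondrial chaperones and cochaperones in sorted cells, 2 rose (Bag2 and Bag3) and 0 fell, with a median of -0.31, and 23 were below 0. Over all genes compared in sorted cells, 13.8% rose and 8.32% fell. Hspa8, the constitutive cytosolic Hsp70 relative of BiP, was at 1291 and 694 FPKM (-0.90). Hsp90ab1, the cytosolic relative of GRP94, was at 3145 and 2285 FPKM (-0.46). On overexpression the median of the list was -0.08, or 0.13 after median-ratio scaling. Of 32 genes compared there, 1 rose (3.13%) and 3 fell (9.38%), beside 6.6% and 10.1% of all genes. Other stress transducers had a median of 0.30 in sorted cells, where 4 of 18 rose (22.2%). The rise was led by the transcription factor genes Creb3 (5.12 to 22.5 FPKM, 1.94) and Creb3l2 (1.68) and by Tmbim6 (1.61). On overexpression the median of the stress transducers was -0.21 (-0.03 after median-ratio scaling), beside -0.18 over all genes. There 2 of 18 fell (11.1%), close to the share of all genes.

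**Figure D3:**
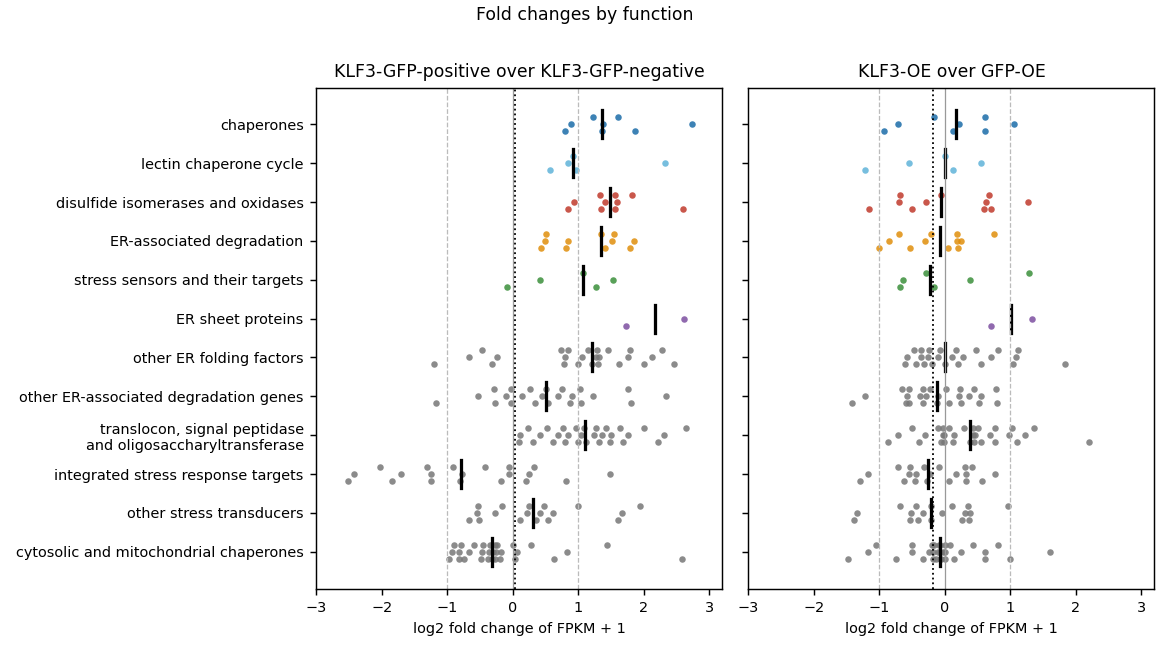
Log2 fold change of FPKM + 1 by function, with the 45 members in colour and other gene lists in grey, 1 point per gene, a bar at the median, the 2-fold limits dashed and the median of all genes dotted. In sorted cells (left) the medians of the ER lists lie to the right of 0 and that of the integrated stress response targets to the left, while on overexpression (right), on the deposited scale, the medians of all lists except ER sheet proteins (1.01) lie between -0.25 and 0.39.

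The promoters of the members were searched for the elements through which the unfolded protein response is known to act, since 26 of them rose together. RefSeq promoter sequences (GRCm38.p6, from 250 bases before to 50 bases after the transcript start) were found for 39 of 45 members, the others being Atf6, Derl1, Erlec1, Erp29, Hyou1 and Manf. The ER stress response element, ERSE (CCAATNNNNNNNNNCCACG), was found on either strand in 10 of the 39 members (25.6%) and in 37 of all 27025 genes with such a sequence (0.137%). ERSE-II (ATTGGNCCACG) was found in 2 members, Dnajb11 and Herpud1, and in 0.0444% of all genes. The members were listed by function and include known targets of this response. Their higher shares therefore follow from how the list was drawn up and are no separate result on these cells. The promoter of Hspa5 (chr2:34771840-34772139, plus strand) is shown whole because BiP is the classical readout of the response. Its only exact match to ERSE is in capitals, 65 to 47 bases before the start. Looser matches were not searched.

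Hspa5: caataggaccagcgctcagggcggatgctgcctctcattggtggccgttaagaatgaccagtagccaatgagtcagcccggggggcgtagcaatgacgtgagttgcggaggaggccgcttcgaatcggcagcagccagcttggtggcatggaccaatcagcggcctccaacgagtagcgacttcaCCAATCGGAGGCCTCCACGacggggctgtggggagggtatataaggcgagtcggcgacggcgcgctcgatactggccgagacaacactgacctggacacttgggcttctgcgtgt

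Elements of 8 further members are shown with 15 bases on each side, 5′ to 3′ on the strand of the gene and with the element in capitals, to set the 6 of them with the largest differences in sorted cells beside Syvn1 and Canx, which were within the limits. They lie at chr14:118937812-118937860 (Dnajc3, plus strand), chr8:84847060-84847108 (Calr, minus strand), chr8:94386362-94386402 (Herpud1, ERSE-II, plus strand), chr16:22857837-22857877 (Dnajb11, ERSE-II, plus strand), chr15:88819505-88819553 (Creld2, plus strand), chr10:86705518-86705566 and chr10:86705623-86705671 (Hsp90b1, minus strand), chr19:6046517-6046565 (Syvn1, plus strand) and chr11:50325785-50325833 (Canx, minus strand). In Calr, Creld2 and the proximal element of Hsp90b1 the element reads on the opposite strand, so that the capitals hold its reverse complement.
Dnajc3: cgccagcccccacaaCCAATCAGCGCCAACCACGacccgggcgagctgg
Calr: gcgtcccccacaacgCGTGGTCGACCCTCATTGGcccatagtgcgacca
Herpud1: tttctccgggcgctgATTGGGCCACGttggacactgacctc
Dnajb11: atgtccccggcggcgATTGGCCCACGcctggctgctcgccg
Creld2: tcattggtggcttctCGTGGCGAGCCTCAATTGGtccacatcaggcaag
Hsp90b1, proximal: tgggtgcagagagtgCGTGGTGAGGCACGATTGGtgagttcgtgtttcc
Hsp90b1, distal: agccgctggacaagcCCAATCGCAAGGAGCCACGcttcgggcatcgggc
Syvn1: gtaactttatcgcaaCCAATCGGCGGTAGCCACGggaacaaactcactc
Canx: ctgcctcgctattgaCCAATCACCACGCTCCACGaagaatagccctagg

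Members with such an element had a somewhat higher median in sorted cells than those without. The ranges of both sets, 0.49 to 2.74 and -0.08 to 2.62, overlapped widely. Members without a promoter sequence are in neither set. These were Manf (1.87), Derl1 (1.85), Erp29 (1.82), Erlec1 (1.55), Atf6 (1.27) and Hyou1 (0.89). Over all 7458 genes with a promoter sequence compared in sorted cells, the median was 0.04 and 13.5% rose. There, 8 of the 11 members with an ERSE or ERSE-II and enough expression were upregulated (72.7%), with a median of 1.37. Among members with a promoter sequence but no element, 13 of 24 were (54.2%), with a median of 1.20. Dnajc3 and Calr, with an element, had log2 fold changes of 2.74 and 2.33, while Syvn1, Canx and Derl3, also with an element, had 0.85, 0.56 and 0.49. Ckap4 and P4hb, at 2.62 and 2.61, had none in this window. Of 11 genes outside the members with an element, 2 rose and 1 fell, with a median of 0.48. On overexpression, the members with and without an element each had a median of 0.03. Of the 12 with an element, 1 rose (8.33%) and 2 fell (16.7%), beside 6.45% and 10.1% of all genes with a promoter sequence. The 2 that fell were Canx and Derl3, and Derl3 came to -0.85 after median-ratio scaling, within the limits. A match to these letters is a description of the sequence and not a site of binding. Only exact matches within this window were searched, and the part of these elements in the differences was not tested.

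Other motifs were rare or were common among all genes too. Each had a higher share among the members, which for the first 2 below rests on 2 members and 1 member. The members were listed by function, while only 10340 of the 27025 genes with a sequence were listed in sorted cells. The higher shares are therefore no separate result on these cells, and the part of these motifs in the differences was not tested. The core of the unfolded protein response element (TGACGTGG) was found in Txndc5 and Vcp (5.13% of the members) and in 0.714% of all genes. The core of the ATF4 element (TTGCATCA) was found in Herpud1 alone (2.56%) and in 1.03% of all genes. The motif CCACG, which ERSE and ERSE-II contain, was found in 31 of 39 members (79.5%) and in 35.5% of all genes. A core of Kruppel-like factor motifs (CCNCNCCC) was found in 27 of 39 members (69.2%) and in 51.9% of all genes.

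**Figure D4:**
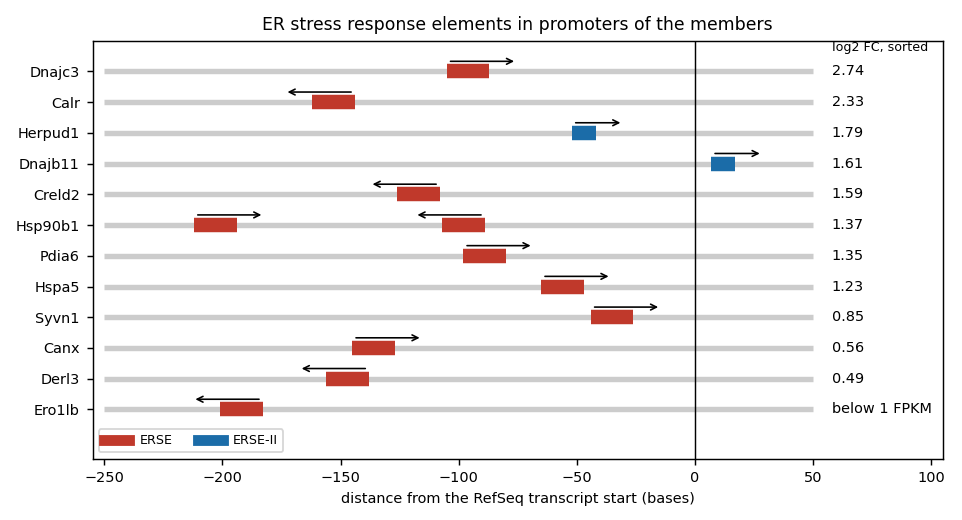
Position of each ERSE (red) and ERSE-II (blue) in the promoters of 12 members, in bases from the RefSeq transcript start, with arrows for the direction of the element and the log2 fold change in sorted cells at the right. All elements lie before the start except that of Dnajb11, and the genes are ordered from Dnajc3 (2.74) to Derl3 (0.49), with Ero1lb under the minimum.

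Gene size was examined because fold changes on overexpression varied with it. Over all genes compared, the Spearman correlation of the log2 fold change with the genomic span of the locus was -0.40 on overexpression and 0.06 in sorted cells. The median of all genes on overexpression was 0.35 in the shortest and -0.49 in the longest genes when they were split into 5 equal groups by span. For the members, the correlation was -0.15 over 44 genes, and the medians in these groups were 0.21 and -0.32. In sorted cells the members had medians from 1.07 to 1.55 in each of the 5 groups of span, beside -0.03 to 0.12 for all genes. With the trend of span removed, 26 members rose in sorted cells, and on overexpression 3 rose, without Ppp1r15a, and 3 fell, with Dnajb9 (-1.43) in place of Ero1l (-0.94).

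**Figure D5:**
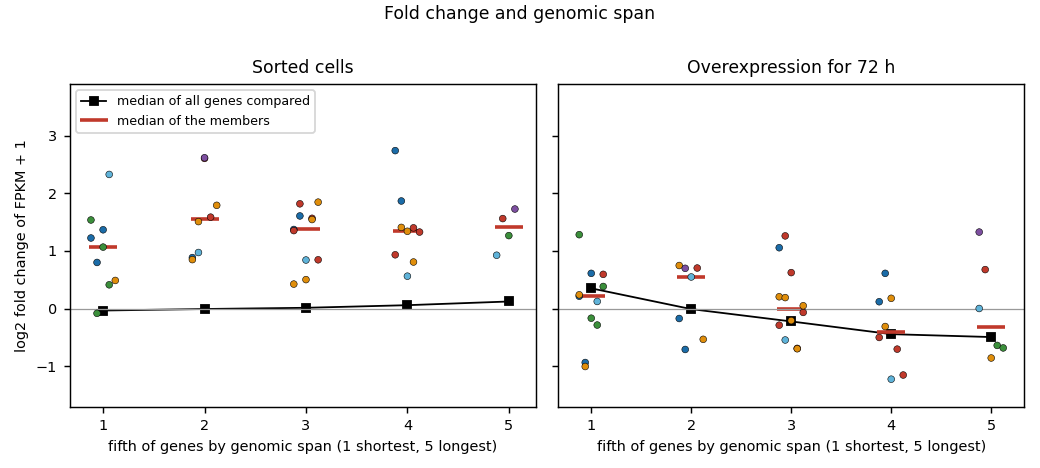
Log2 fold change of FPKM + 1 of the members (points, coloured by function) in 5 equal groups of all genes by genomic span, with the median of all genes compared (black squares) and of the members (red bars). In sorted cells (left) the members lie above the line of all genes in each group, with the exception of Atf4, and on overexpression (right) they scatter around it.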

How the data were processed

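RNA-seq of 8 samples was used, 2 in each of 4 groups. Per the labels and the methods of the study, the authors used STAR (2.6.0 in the submitters' processing notes, another version in the methods) for alignment to mm10 guided by GENCODE, and Cufflinks 2.2.1 for FPKM. The deposited tables, 1 per experiment, hold the authors' mean FPKM of both samples, in 1 column per group, with 0.1 as the lowest value. Library depth and replicate spread are thus unknown, no interval or test was possible, and the limma fit planned for replicates could not be run.

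Differences of log2(FPKM + 1) were computed with pandas 2.3.3 and numpy 2.4.6 where the mean of both columns reached 1 FPKM and counted past a fold of 2 or 0.5. For an identifier at several loci, the locus of highest mean was kept. All members could be named, and of other lists up to 3 genes with the largest change, besides the cell type markers, the genes of a count of 2 or fewer and the cytosolic relatives of BiP and GRP94, which were chosen after their values were seen. The members and lists were chosen with earlier results of these data known.

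The alternatives comprised a smaller pseudocount (0.1), no pseudocount with a floor of 0.1, no minimum, a minimum of 5 FPKM, median-ratio scaling and quantile normalization. Removal of a trend (lowess, fraction 0.3, statsmodels 0.14.6) with genomic span or with transcript length (GENCODE M21) was added after the data were seen. Promoter sequences are those of RefSeq for GRCm38.p6, the assembly of mm10, and 38 of 43 member windows ended within a GENCODE M21 transcript of the gene. The scripts were checked on simulated data.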

Additional observations from a re-analysis of the deposited data

How the results depend on the processing

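In sorted cells the number of upregulated members ranged from 23 (mean of at least 5 FPKM, where 32 members were compared) to 32 (pseudocount of 0.1, or a floor without pseudocount) over the 6 alternatives set, 0 members fell under any of them, and the median ranged from 1.22 to 1.52. Of the 26 upregulated members 22 stayed past the limit in all 6, 3 (Atf6, Edem1 and Erlec1) wherever they were compared, being left out by the minimum of 5 FPKM, and Ddit3 did not. On overexpression 3 of 7 calls did. Quantile normalization left 2 upregulated members and 1 downregulated member, and median-ratio scaling left 1 downregulated member. With a pseudocount of 0.1 or a floor without pseudocount, 5 members fell, Dnajb9 (-1.09 and -1.11) and Edem3 (-1.17 and -1.22) being added. The sign of 8 members on overexpression (Hspa5, Hsp90b1, Calr, Pdia6, Sel1l, Os9, Vcp and Xbp1) changed under at least 1 of the 6, that of Sdf2l1, Syvn1 and Ddit3 (and, in sorted cells, Atf4) only with a trend removed, and the median of all members compared ranged from -0.03 to 0.22. Removal of a trend with transcript length gave 27 upregulated members in sorted cells, and 3 upregulated and 3 downregulated members on overexpression (Dnajb11 and Canx lost, Dnajb9 added at -1.14), where the median was 0.06, and -0.09 with the trend of genomic span removed. The causes of these differences were not tested. As the replicate spread is unknown, a median was counted as moved when it differed by more than 0.2. No paired analysis was possible because the tables hold 1 mean per group, and leaving out each replicate was not run for the same reason. Depth is unknown, so it cannot be said which of the low values, such as those of Ern1, Edem3 and Ero1lb, rest on few reads.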

Other observations

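The ratio of an ER chaperone to its cytosolic relative, which does not change when a column is multiplied by a factor, differed between the sorted groups. Quantile normalization can change such a ratio, and those below were taken from the deposited FPKM alone. The pairs were chosen after their values were seen. Hspa5 stood at 10.5% of the FPKM of Hspa8 in KLF3-GFP-negative and at 46.0% in KLF3-GFP-positive cells, a 4.37-fold difference. Hsp90b1 stood at 5.96% and 21.3% of Hsp90ab1 (3.58-fold). Hyou1 stood at 7.71% and 13.8% of Hsph1 (1.79-fold), and the ratio of Dnajb11 to the cytosolic J protein gene Dnaja1 went from 1.43 to 5.77 (4.05-fold). The cytosolic partners differed too, so the ratios do not reflect the ER genes alone. Their log2 fold changes in sorted cells were -0.90 (Hspa8), -0.46 (Hsp90ab1), -0.38 (Dnaja1) and 0.63 (Hsph1). On overexpression the ratios for Hspa5, Hsp90b1 and Hyou1 differed by 1.31, 0.803 and 0.686-fold. The ratio of Dnajb11 to Dnaja1 differed by 4.44-fold there, from 0.153 to 0.680, as Dnaja1 fell from 169 to 80.9 FPKM (log2 fold change -1.06) while Dnajb11 rose. No replicate check of these ratios was possible.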
